A study of Mus musculus with 24 samples.

Results

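The expression of 4 genes, Sp100, Pml, Daxx and Phf11d, was followed across interferon treatment of mouse fibroblasts. All probe sets that the array platform's annotation assigns to 1 of these symbols were taken, which gave 7 of the 45037 probe sets measured apart from controls. Pml was covered by 3 probe sets, Sp100 by 2, and Daxx and Phf11d by 1 each. Total RNA of NIH-3T3 cells, an established mouse embryonic fibroblast line, was hybridised to 24 Affymetrix arrays in 7 groups, and the study asked how type I and type II interferon change transcript levels early after addition. Cells received IFN-alpha (type I) or IFN-gamma (type II) at 100 U/ml, or a mock treatment. All cells of the 1 h mock, IFN-alpha and IFN-gamma groups (4 arrays each) also carried 200 uM 4-thiouridine (4sU), a uridine analogue that enters new RNA, from 0 to 60 min. All cells of the 3 h mock, IFN-alpha and IFN-gamma groups (3 arrays each) carried 500 uM 4sU from 150 to 180 min. The last group was mock cells at 1 h without 4sU (3 arrays). The arrays measured total cellular RNA, so old and new transcripts were read together. The groups model an early response in 1 immortal line, and the labels do not say whether replicates were separate cultures, so a p-value rests on the variation among arrays, part or all of which may be technical.

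PML nuclear bodies are small spherical structures in the nucleus that are held together by the protein PML and by its modification with SUMO, a small ubiquitin-like tag. SP100 is a resident protein of these bodies and a chromatin reader, and DAXX is recruited to them through SUMO and loads the histone variant H3.3 together with ATRX. The bodies are known for silencing incoming viral DNA, and several of their genes are known interferon targets. Phf11d encodes a PHD finger protein, a kind of domain that reads histone tails, and belongs to a family of neighbouring gene copies on chromosome 14. Type I interferon acts through a complex that includes STAT2 and IRF9 and recognises GAAA repeats, whereas the elements of the type II response hold the palindrome TTCNNNGAA.

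The promoters of the 4 genes are shown because the genes responded to the interferons in unequal measure, and these letters are where such elements would be sought. Each window runs from 250 bases before the start of transcription to 50 bases after it (start at position 0), is taken from RefSeq on GRCm38.p6, and is printed 5′ to 3′ on the strand of the gene, with capitals marking GAAA pairs, which read TTTC where they lie on the opposite strand. The windows lie at chr1:85649738-85650037 on the plus strand for Sp100, chr9:58249737-58250036 on the minus strand for Pml, chr17:33909195-33909494 on the plus strand for Daxx and chr14:59365441-59365740 on the minus strand for Phf11d. RefSeq lists further starts for some genes, and the window listed first is printed.
Sp100: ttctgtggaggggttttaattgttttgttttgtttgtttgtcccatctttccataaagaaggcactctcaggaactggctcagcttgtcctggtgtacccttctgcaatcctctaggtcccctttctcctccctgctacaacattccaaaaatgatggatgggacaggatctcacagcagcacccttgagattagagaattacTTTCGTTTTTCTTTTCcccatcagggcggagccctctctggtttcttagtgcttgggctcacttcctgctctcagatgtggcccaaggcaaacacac
Pml: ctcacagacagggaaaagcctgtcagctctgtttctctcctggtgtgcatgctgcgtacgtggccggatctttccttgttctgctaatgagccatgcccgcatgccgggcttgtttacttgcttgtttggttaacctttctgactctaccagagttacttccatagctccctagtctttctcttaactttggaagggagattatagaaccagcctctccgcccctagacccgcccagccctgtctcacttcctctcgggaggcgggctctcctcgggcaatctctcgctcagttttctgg
Daxx: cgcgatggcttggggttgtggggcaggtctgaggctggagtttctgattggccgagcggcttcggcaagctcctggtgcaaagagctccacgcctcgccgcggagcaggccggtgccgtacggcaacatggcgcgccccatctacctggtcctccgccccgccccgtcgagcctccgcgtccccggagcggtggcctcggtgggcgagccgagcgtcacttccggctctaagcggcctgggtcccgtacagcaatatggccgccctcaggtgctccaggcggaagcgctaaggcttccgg
Phf11d: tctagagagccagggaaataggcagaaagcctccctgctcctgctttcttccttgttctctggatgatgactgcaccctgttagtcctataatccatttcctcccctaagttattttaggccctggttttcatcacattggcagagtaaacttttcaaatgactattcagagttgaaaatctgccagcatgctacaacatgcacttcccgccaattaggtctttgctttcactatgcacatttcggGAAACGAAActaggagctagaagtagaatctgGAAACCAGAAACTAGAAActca

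The motifs searched on both strands were GAAANNGAAA, GAAANGAAA, GAAANNNGAAA and TTCNNNGAA. GAAANNGAAA, the usual spacing, was present in 0 of the 4 windows and in 3.44% of all 32851 promoter windows of the same length. The spacings of 1 and 3 bases were added after the promoters of these genes had been read, so their matches are a description. In Sp100 a GAAANNNGAAA match from -47 to -37 and a GAAANGAAA match from -40 to -32 overlapped, both on the minus strand. In Phf11d GAAANGAAA lay across the start, from -4 to 4, and GAAANNNGAAA lay from 28 to 38 and, overlapping it, from 35 to 45. GAAANGAAA was found in 3.17% of all windows, GAAANNNGAAA in 2.75%, and at least 1 of the GAAA spacings in 8.61%. Neither the Pml nor the Daxx window held any of these letters, and the Daxx window had a GC content of 69.7%. TTCNNNGAA, which 8.3% of all windows hold, was in none of the 4 printed windows. Of the other members of the Phf11 family, the windows of Phf11a and Phf11b held GAAANNGAAA and that of Phf11c held no match.

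**Figure D1:**
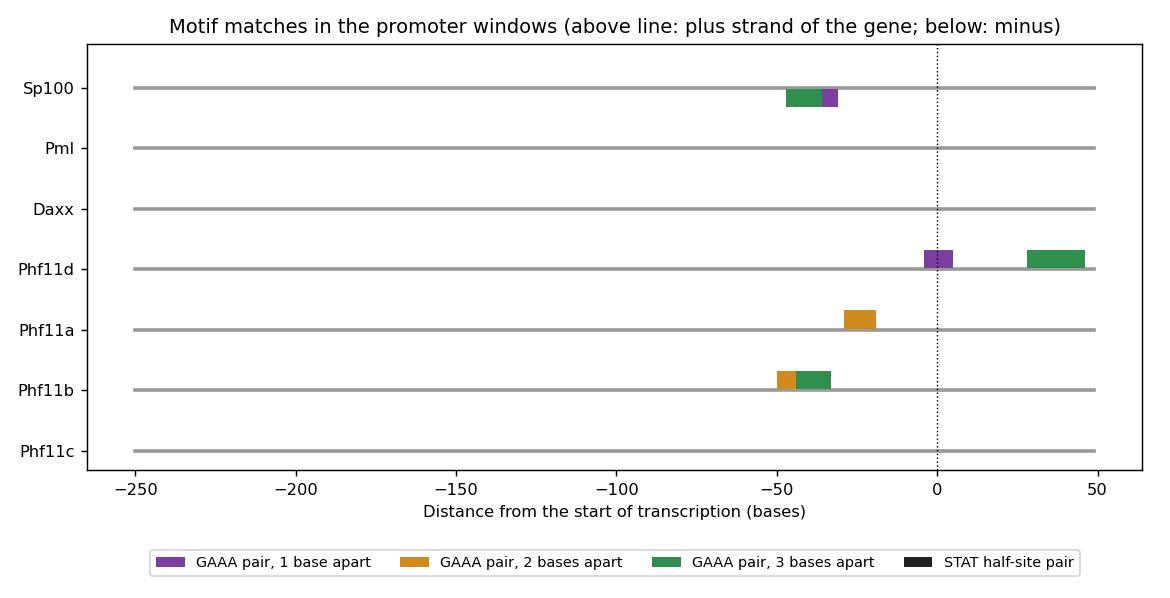
Position of each motif match in the promoter windows of the 4 genes and of the other Phf11 family members, in bases from the start of transcription; blocks above a line are on the strand of the gene and blocks below it on the opposite strand. Matches are drawn for Sp100 and Phf11d and for Phf11a and Phf11b, and the lines of Pml, Daxx and Phf11c are empty.

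The signal of a probe set is given on the deposited log2 scale, on which 1 unit is a doubling, and a mean below 4 was taken as background. The median log2 signal of the arrays lay between 2.95 and 3.11, and 16933 to 17688 probe sets per array were above 4. At 1 h with 4sU, replicate 2 of each group had a 3′ actin signal 2.99 to 3.43 above the 5′ actin signal on the log2 scale, as did replicates 2 and 3 of mock cells without 4sU (2.22 and 3.31), against 0.78 to 1.37 on the other arrays. The part of this RNA quality difference in the results below was not tested, except that each fit was repeated without the 3 replicate 2 arrays. All 12 of 12 fibroblast markers were above 4, with a median of 12.2, whereas 1 of 9 leukocyte markers (Cd14) and 0 of 7 epithelial and endothelial markers were. The median standard deviation of a probe set within a group was 0.35 to 0.40 at 1 h and 0.12 to 0.13 at 3 h. The main fit shares 1 spread per probe set over all groups. Errors, intervals and p-values at 3 h therefore also carry the spread at 1 h, and the reverse. In these bulk samples fewer responding cells and less RNA per cell cannot be told apart.

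IFN-alpha raised all 4 genes by 3 h: Pml 3.77-fold by its strongest probe set, Daxx 9.24-fold, Sp100 at least 7.33-fold and Phf11d at least 25.5-fold. IFN-gamma raised Phf11d and 1 of the 2 Sp100 probe sets by 3 h, to lower levels than IFN-alpha did. The 3 Pml probe sets and Daxx also lay above mock without overlap with IFN-gamma at 3 h, but were not called in the main fit. With the replicate number as a block 2 of the Pml probe sets were called. At 1 h the Sp100 probe sets were at background with either interferon, and the largest early differences were those of Pml 1459137_at and Daxx with IFN-alpha, which passed the test under some settings each and not under others. The genes also differed in where they started: Daxx and 2 of the 3 Pml probe sets were above background in mock cells at 3 h, whereas Sp100 and Phf11d were below it.

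**Figure D2:**
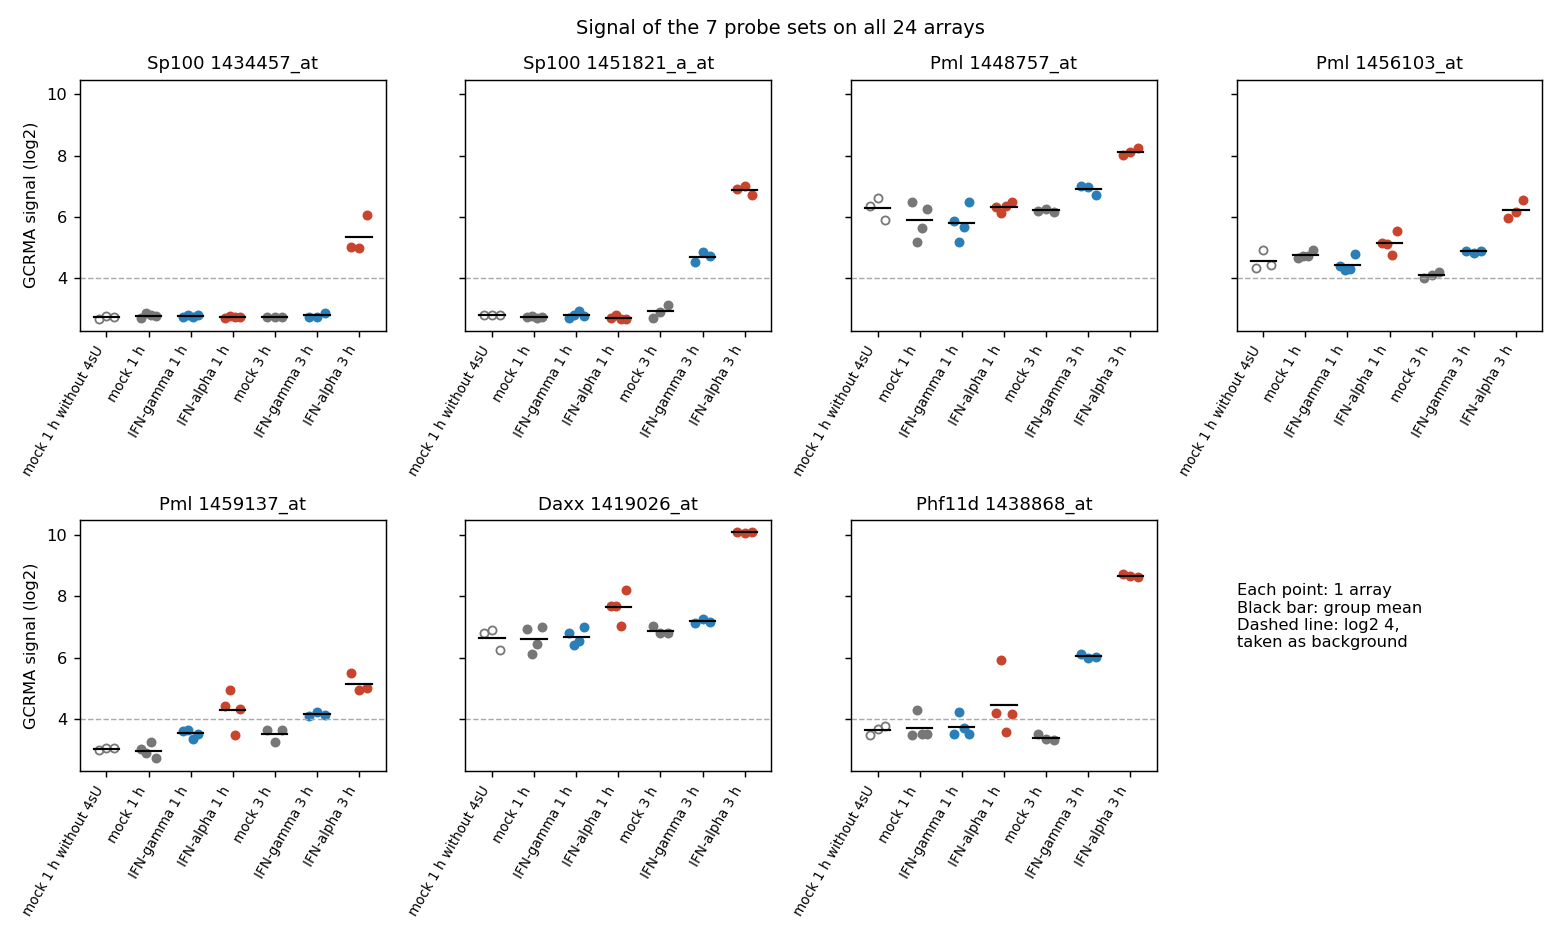
GCRMA signal (log2) of each of the 7 probe sets on each of the 24 arrays, by group; points are arrays, black bars are group means and the dashed line marks the level of 4 taken as background. The IFN-alpha arrays at 3 h lie above all mock arrays in every panel, and the Sp100 1434457_at panel has values above the dashed line in that group alone.

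Pml encodes the scaffold of the bodies, a RING finger protein that is itself modified by SUMO. Its strongest probe set, 1448757_at, read 6.19, 6.27 and 6.17 in mock cells at 3 h. With IFN-alpha at 3 h it read 8.02, 8.11 and 8.24, and with IFN-gamma 6.99, 6.98 and 6.72. The 3 groups did not overlap: IFN-alpha was highest, IFN-gamma between, and mock lowest. The difference from mock was 1.91 ± 0.30 (SE) with IFN-alpha, a 3.77-fold rise (limma, adjusted p = 0.000288). With IFN-gamma it was 0.68 ± 0.30, or 1.61-fold, and was not called (adjusted p = 0.784), although with the replicate number as a block it was (adjusted p = 0.0489, range over the settings tried other than single arrays left out 0.00235 to 1).

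At 1 h the same probe set read 6.50, 5.16, 5.65 and 6.25 in mock cells, 6.31, 6.13, 6.37 and 6.49 with IFN-alpha, and 5.87, 5.17, 5.66 and 6.49 with IFN-gamma. The 3 groups overlapped, and the lowest value of each came from replicate 2, whose arrays had the high 3′ to 5′ actin difference. The differences from mock were 0.44 ± 0.26 with IFN-alpha and -0.09 ± 0.26 with IFN-gamma (adjusted p = 1 for both). Without 4sU the mock arrays read 6.36, 6.62 and 5.91, within the range of the other early groups or just above it.

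Pml probe set 1456103_at was weaker and followed the same order at 3 h. It read 4.00, 4.10 and 4.20 in mock cells, 5.96, 6.14 and 6.56 with IFN-alpha, and 4.88, 4.83 and 4.90 with IFN-gamma, again without overlap. IFN-alpha raised it by 2.12 ± 0.20, or 4.35-fold (limma, adjusted p = 2.05e-07). The IFN-gamma difference of 0.77 ± 0.20, or 1.70-fold, missed the threshold (adjusted p = 0.0525) and passed it with the replicate block (adjusted p = 0.000853; 0.000853 to 0.0698 over the same settings). At 1 h it read 4.64, 4.71, 4.73 and 4.90 in mock cells, 5.13, 5.11, 4.75 and 5.55 with IFN-alpha, and 4.41, 4.27, 4.30 and 4.79 with IFN-gamma. Of the IFN-alpha arrays 3 lay above every mock array and replicate 3 did not. Neither early difference passed the test, at 0.39 ± 0.17 and -0.30 ± 0.17 (adjusted p = 1 for both).

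The third Pml probe set, 1459137_at, was at background in mock cells and differed from them at 1 h. At 1 h it read 3.00, 2.87, 3.25 and 2.72 in mock cells, 4.42, 4.95, 3.46 and 4.32 with IFN-alpha, and 3.60, 3.64, 3.32 and 3.52 with IFN-gamma. Every interferon array was above every mock array, and 3 of the 4 IFN-alpha arrays were above 4. The IFN-alpha difference was 1.33 ± 0.22, at least 1.22-fold against the background level (limma, adjusted p = 0.00382), and the IFN-gamma difference was 0.56 ± 0.22 (adjusted p = 1). The IFN-alpha call ended when values below 4 were set to 4 (a difference of 0.42, adjusted p = 1), with the arrays of 1 h alone (adjusted p = 0.0665) and with the compared groups alone (adjusted p = 0.821), with a range of 0.00369 to 1 over these and the other settings apart from single arrays left out, where it held (2.60e-05 to 0.0234). At 3 h it read 3.62, 3.24 and 3.65 in mock cells, 5.50, 4.93 and 5.00 with IFN-alpha, and 4.08, 4.21 and 4.13 with IFN-gamma. IFN-alpha was higher than mock by 1.64 ± 0.25, at least 2.21-fold (adjusted p = 0.000266), and IFN-gamma by 0.64 ± 0.25 (adjusted p = 0.586). Where the 3 probe sets lie along the Pml transcripts was not analysed here.

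Sp100 encodes a resident of the bodies that binds chromatin and is related to SP110, SP140 and AIRE. Probe set 1451821_a_at read 2.71, 2.90 and 3.12 in mock cells at 3 h, all below background. With IFN-alpha it read 6.92, 6.99 and 6.71, and with IFN-gamma 4.52, 4.85 and 4.72. Both interferon groups lay above mock, and IFN-alpha lay above IFN-gamma, with no overlap. IFN-alpha raised it by 3.97 ± 0.13, at least 7.33-fold (limma, adjusted p = 5.32e-15), and IFN-gamma by 1.79 ± 0.13, at least 1.62-fold (adjusted p = 3.12e-09).

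Sp100 probe set 1434457_at read 2.73 on each of the 3 mock arrays at 3 h, 5.00, 4.97 and 6.06 with IFN-alpha, and 2.74, 2.74 and 2.85 with IFN-gamma. Only the IFN-alpha arrays at 3 h were above background, and of all 24 arrays these 3 alone let it pass the filter on low values. IFN-alpha raised it by 2.61 ± 0.19, at least 2.54-fold (adjusted p = 2.17e-09). The IFN-gamma difference was 0.05 with a 95% interval of -0.34 to 0.44 (adjusted p = 1), between values that were all at background. The IFN-gamma rise at 3 h was thus called by 1 of the 2 Sp100 probe sets, and where each lies along the transcripts was not analysed here.

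At 1 h both Sp100 probe sets were at background on every array. 1451821_a_at ranged from 2.70 to 2.77 in mock cells, from 2.66 to 2.79 with IFN-alpha and from 2.68 to 2.92 with IFN-gamma. 1434457_at ranged from 2.71 to 2.85, from 2.71 to 2.76 and from 2.71 to 2.79 in the same groups. No Sp100 rise was detectable at 1 h, where differences ran from -0.04 to 0.06 (adjusted p = 1 for all 4).

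Daxx encodes the histone chaperone that partners ATRX and binds SUMO-modified PML. At 3 h it read 7.03, 6.81 and 6.80 in mock cells, 10.10, 10.07 and 10.09 with IFN-alpha, and 7.14, 7.25 and 7.16 with IFN-gamma. The IFN-alpha arrays stood far above the others with an SD of 0.017, while the IFN-gamma arrays lay just above mock without overlap. IFN-alpha raised Daxx by 3.21 ± 0.26, or 9.24-fold (limma, adjusted p = 1.38e-08). The IFN-gamma difference was 0.31, or 1.24-fold, with a 95% interval of -0.23 to 0.84 (adjusted p = 1). This interval uses the spread of all groups. The SD was 0.13 in mock and 0.06 with IFN-gamma at 3 h, against 0.26 to 0.48 at 1 h. The lowest limma adjusted p over the settings tried other than single arrays left out was 0.0691.

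Daxx was also the member with the largest early IFN-alpha value among those expressed in mock cells. At 1 h it read 6.93, 6.13, 6.43 and 6.99 in mock cells, 7.70, 7.68, 7.03 and 8.20 with IFN-alpha, and 6.80, 6.39, 6.55 and 6.99 with IFN-gamma. Every IFN-alpha array was above every mock and IFN-gamma array, by little for replicate 3. The IFN-alpha difference of 1.03 ± 0.22, or 2.05-fold, lay just outside the threshold (limma, adjusted p = 0.0559) and inside it with the replicate block (adjusted p = 0.000594; 0.000594 to 1 over the settings tried other than single arrays left out). Without replicate 3 of IFN-alpha or replicate 4 of mock it was called as well (adjusted p = 0.00564 and 0.0437). The IFN-gamma difference was 0.06 ± 0.22 (adjusted p = 1).

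Phf11d, the PHD finger gene, rose with both interferons by 3 h. Its probe set 1438868_at read 3.49, 3.33 and 3.3 in mock cells at 3 h, 8.72, 8.66 and 8.64 with IFN-alpha, and 6.12, 5.99 and 6.03 with IFN-gamma. The groups were far apart relative to their spread, with mock at background. IFN-alpha raised Phf11d by 5.30 ± 0.38, at least 25.5-fold (limma, adjusted p = 1.95e-09), and IFN-gamma by 2.67 ± 0.38, at least 4.13-fold (adjusted p = 9.16e-05).

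At 1 h Phf11d read 3.49, 4.27, 3.49 and 3.49 in mock cells, 4.19, 5.90, 3.56 and 4.14 with IFN-alpha, and 3.49, 4.24, 3.71 and 3.49 with IFN-gamma. Replicate 2 was the highest of each of these groups, and it is the replicate with the high 3′ to 5′ actin difference, whose part was not tested. The groups overlapped, and the differences were 0.76 ± 0.33 with IFN-alpha and 0.05 ± 0.33 with IFN-gamma (adjusted p = 1 for both). Without the 3 replicate 2 arrays neither was called. Phf11a, Phf11b and Phf11c have no probe set under their own symbol in the annotation, and whether 1438868_at separates the family members was not tested.

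**Figure D3:**
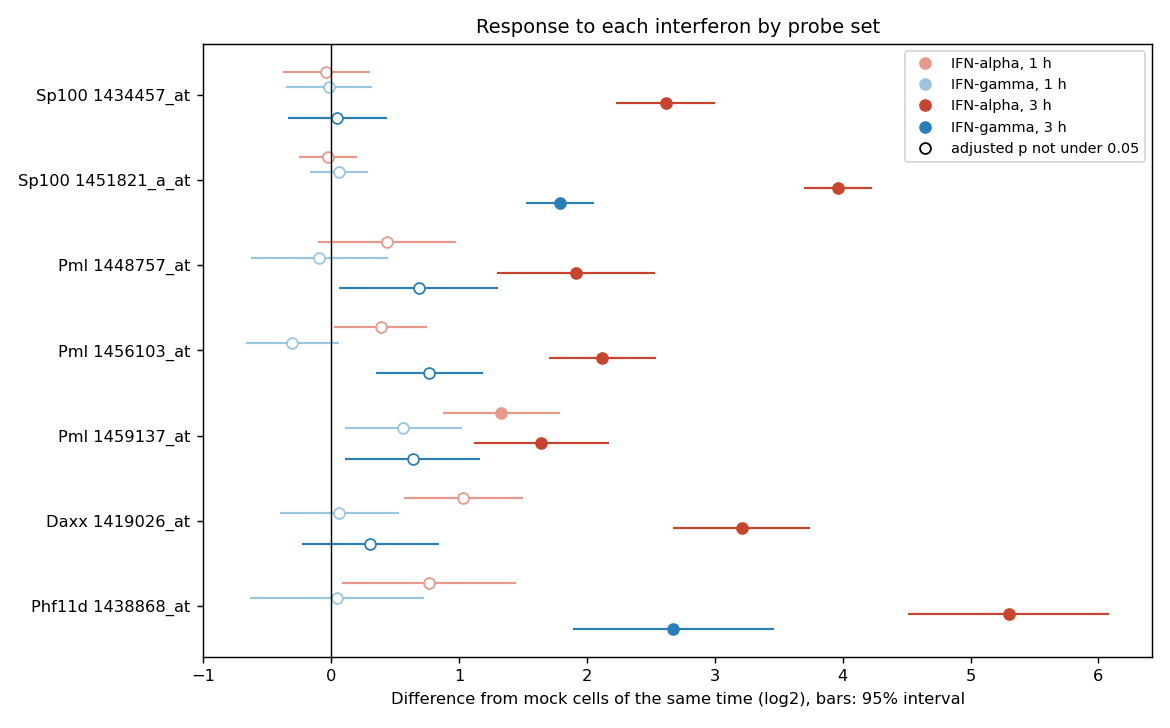
Difference of each probe set from mock cells of the same time (log2, horizontal axis) for each interferon and time; points are fitted differences, bars are 95% intervals and open points have an adjusted p that is not under 0.05. The IFN-alpha points at 3 h run from 1.64 to 5.30, and the Sp100 points at 1 h lie near 0.

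Counted over probe sets, IFN-alpha at 3 h was called in 7 of 7, where 1.53% of the 19305 probe sets tested were called higher. All 7 also had no overlap with mock, as did 6.21% of all probe sets. All 7 passed the filter on low values, which asks for 3 arrays above 4, but 4 of them could not have passed on mock arrays. Sp100 1434457_at passed through the IFN-alpha arrays at 3 h alone, Sp100 1451821_a_at through the interferon arrays at 3 h, and Pml 1459137_at through IFN-alpha arrays of both times and IFN-gamma arrays at 3 h, while Phf11d had 1 mock array above 4. These had to differ in 1 or more of the comparisons below, so the counts are a description. IFN-gamma at 3 h was called in 2 of 7, 1 of Sp100 and that of Phf11d, against 1.88% of all probe sets. With IFN-gamma all 7 lay above mock without overlap, as did 8.31% of all probe sets, and the median difference was 0.68 against -0.05 over all genes with 1 probe set each. For Sp100 1434457_at both groups were at background and differed by 0.05 only, so its lack of overlap says little. With the replicate block 4 of 7 were called, against 3.86% of all probe sets in that fit, which added 2 of the Pml probe sets. The 2 interferon groups of a time share their mock arrays.

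At 1 h IFN-alpha was called in 1 of 7 (Pml 1459137_at), against 0.259% of all probe sets, and 2 of 7 did not overlap with mock, against 0.508%. With the replicate block Daxx was called too, 2 of 7 against 0.622% of all probe sets in that fit. IFN-gamma at 1 h was called in 0 of 7 by limma, against 0.435% called higher over all probe sets, with 1 of 7 at an unadjusted p under 0.05, and 1 of 7 lay above mock without overlap, against 0.746%. Both times it was Pml 1459137_at, whose mock and IFN-gamma arrays at 1 h were all at background. The replicate block also gave 0 of 7 called, against 1.32%.

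Set directly against each other at 3 h, IFN-alpha was higher than IFN-gamma in 7 of 7 probe sets, against 0.761% of all, and without overlap in 7 of 7, against 8.82%. For Sp100 1434457_at, above 4 on the IFN-alpha arrays at 3 h alone, the filter fixed this direction. The gap of Daxx was 2.90 ± 0.26 or 7.48-fold (limma, adjusted p = 1.44e-07). That of Phf11d was 2.63 ± 0.38 or 6.17-fold (adjusted p = 0.000141), and that of Sp100 1451821_a_at 2.18 ± 0.13 or 4.52-fold. Sp100 1434457_at gave a bound of at least 2.54-fold, since its IFN-gamma arrays were at background. The Pml gaps were 1.35 ± 0.20 for 1456103_at (2.55-fold, adjusted p = 0.000222), 1.23 ± 0.30 for 1448757_at (2.34-fold, adjusted p = 0.0343) and 1.00 ± 0.25 for 1459137_at (2.01-fold, adjusted p = 0.0468). The calls of 1448757_at and 1459137_at ended when any 1 of the 6 arrays was left out (adjusted p from 0.0915 to 0.186 and from 0.0743 to 0.360). They also ended with no filter on low values (0.0763 and 0.0892), and that of 1459137_at with quantile normalization (0.0986).

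At 1 h no probe set differed between the interferons by limma (0 of 7, against 0.104% of all probe sets higher with IFN-alpha, with 4 of 7 at an unadjusted p under 0.05). Daxx was higher with IFN-alpha by 0.97 ± 0.22 (adjusted p = 0.0715) and Pml 1456103_at by 0.69 ± 0.17 (adjusted p = 0.146). With the replicate block both were called, 2 of 7 against 0.995% of all (adjusted p = 0.000768 and 0.00219; the settings tried ran from these values to 1). Daxx alone had no overlap, 1 of 7 against 0.57% of all. Without replicate 3 of IFN-alpha, the lowest IFN-alpha array for Daxx, Phf11d, Pml 1456103_at and Pml 1459137_at, 3 of 7 were called: Daxx (adjusted p = 0.00988), Pml 1456103_at (0.0425) and Pml 1459137_at (0.00514).

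The change of each response between 1 h and 3 h was tested as the difference of the differences from mock. For IFN-alpha it was called in 5 of 7, against 0.932% of all probe sets: Phf11d grew by 4.54 ± 0.50, Sp100 by 3.99 ± 0.17 and 2.65 ± 0.25, Daxx by 2.17 ± 0.34 and Pml 1456103_at by 1.73 ± 0.27. Both Sp100 probe sets passed the filter through arrays of 3 h alone, so for them a larger value at 3 h was built in. Pml 1448757_at, at 1.48 ± 0.39, was not called (adjusted p = 0.116). It was called with the block (adjusted p = 0.00263; 0.00263 to 0.264 over the settings tried), without the 3 replicate 2 arrays of 1 h (0.00767) and without replicate 2 of mock alone (0.0146). Pml 1459137_at, whose call at 1 h ended under some settings, changed by 0.31 ± 0.34 (95% interval -0.39 to 1.01). This change reached 0.72 over the settings tried other than single arrays left out, and was called in none of them. For IFN-gamma it was called in 2 of 7, against 0.787%: Phf11d by 2.63 ± 0.50 and Sp100 1451821_a_at by 1.73 ± 0.17. Pml 1456103_at, at 1.07 ± 0.27, had an adjusted p of 0.0726, of 0.00101 with the block (0.00101 to 0.182 over the settings tried) and of 0.0291 without replicate 4 of IFN-gamma at 1 h. The 4sU dose and labelling window differ between the times, and each difference was taken within a time.

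No probe set of the 4 genes differed past the threshold between mock cells with and without 4sU at 1 h. The differences ran from -0.41 (Pml 1448757_at) to 0.19 (Pml 1456103_at), with 0 of 7 called by limma, 0 of 7 at an unadjusted p under 0.05 and 0.0311% of all probe sets called, all lower. Replacing the mock arrays at 1 h by those without 4sU changed no call in the interferon comparisons at 1 h. Between mock cells at 3 h and at 1 h, where time, 4sU dose and labelling window cannot be told apart, 1 of 7 was called, against 5.88% of all probe sets lower. Pml 1456103_at was lower at 3 h by 0.65 ± 0.19 (limma, adjusted p = 0.0308). This call ended in fits of fewer groups (0.0568) and without any 1 of the 7 arrays other than replicate 1 of 1 h (adjusted p up to 0.128). The other Pml probe sets went the other way and were not called. Pml 1448757_at was higher at 3 h by 0.32 ± 0.28 (adjusted p = 0.446). Pml 1459137_at, at background in both groups, was higher by 0.54 ± 0.24 (adjusted p = 0.140).

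In the order of group means, IFN-alpha at 3 h stood first for all 7 probe sets. IFN-gamma at 3 h stood next for both Sp100 probe sets, Phf11d and Pml 1448757_at, apart from its lower neighbour for all of these except Sp100 1434457_at. For Daxx, Pml 1456103_at and Pml 1459137_at, IFN-alpha at 1 h stood next, above IFN-gamma at 3 h, but the arrays of these neighbours overlapped. The remaining groups of Daxx, from 6.62 to 6.88 in mean, overlapped with their neighbours among themselves. The highest of them, mock at 3 h, lay below IFN-gamma at 3 h without overlap.

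Relatives, neighbours and partners of the 4 genes were read from lists by their single strongest probe set. The median difference over all 9421 such genes was -0.07 with IFN-alpha and -0.05 with IFN-gamma at 3 h. Of 9 relatives or chromosomal neighbours of Sp100 and Phf11d 3 have a named probe set. Setdb2, listed as a neighbour, alone passed the filter on low values. Setdb2, a histone methyltransferase gene that lies beside the Phf11 family on chromosome 14, ranged from 5.69 to 5.72 in mock cells at 3 h, from 7.25 to 7.31 with IFN-alpha and from 5.77 to 5.79 with IFN-gamma. It was higher with IFN-alpha on every array, but the difference of 1.57 ± 0.47 was not called (limma, adjusted p = 0.186). That SE holds the spread of all groups, and Setdb2 ranged from 4.03 to 6.18 in mock cells at 1 h. Sp110, a relative of Sp100 with 3 probe sets, was below 4 on all arrays, with its highest value of 3.57 in the IFN-alpha group at 3 h, and Aire was likewise below 4.

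Of 10 genes of histone H3.3 deposition 8 were measured, and 0 were called by limma with either interferon, with 1 of 8 at an unadjusted p under 0.05 with IFN-gamma at 1 h. Atrx, the partner of DAXX, differed from mock by -0.01 ± 0.14 with IFN-alpha and 0.02 ± 0.14 with IFN-gamma at 3 h, and the list's median was -0.02 and -0.05. Of 19 genes of the SUMO machinery 15 were measured and 0 were called with either interferon by limma. 1 of these 15 was at an unadjusted p under 0.05 with IFN-alpha at 3 h (Topors, at 0.41, named after its value was seen). Of 18 genes of other nuclear bodies 18 were measured, 0 were called and 0 had an unadjusted p under 0.05 with either interferon. Of all 9421 genes, IFN-alpha was called higher in 0.308% at 1 h and 1.79% at 3 h, and IFN-gamma in 0.393% and 2.21%. In lists of 8, 15 and 18 genes 0 calls are near these shares, so the counts do not set the lists apart from other genes. The list of other nuclear bodies had a median of -0.11 with both interferons at 3 h. Its differences ran from -0.51 to 0.08 with IFN-alpha at 3 h.

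Of 30 other proteins that visit PML bodies 24 were measured, and 1 was called higher with IFN-alpha at 3 h, against 1.79% of the 9421 genes. Isg20, an interferon-induced RNA exonuclease, was higher by 2.06 ± 0.42, or 4.17-fold (limma, adjusted p = 0.00698), and by 0.59 ± 0.42 with IFN-gamma, which was not called (adjusted p = 1). Between the mock times 1 of the 8 genes of H3.3 deposition (Atrx) and 3 of these 24 (Sirt1, Rb1 and Skil) were called lower at 3 h by limma. The differences were 0.47 to 1.03, and 0 genes of either list were called higher. Of all 9421 genes, 397 were called lower and 513 higher. Time, 4sU dose and labelling window cannot be told apart in this comparison.

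The genes that carry the interferon signal to the promoter were measured for 13 of 15. With IFN-alpha at 3 h 5 of 13 were called higher, against 1.79% of the 9421 genes, and with IFN-gamma 3 of 13, against 2.21%. Stat2, a subunit of the type I complex, was 21.1-fold higher with IFN-alpha and 14.7-fold with IFN-gamma. Irf9, its DNA-binding partner, was 14.3-fold and 10.6-fold higher. Irf7 was at least 6.62-fold higher with IFN-alpha and at background with IFN-gamma, and Irf2, a competing factor, was at least 2.36-fold higher with IFN-alpha. Irf1, a factor known as an early target of IFN-gamma, was 23.3-fold higher with IFN-gamma at 3 h and 1.97-fold with IFN-alpha, a value named after it was seen. At 1 h Irf1 and Irf9 were the called genes of this list with both interferons, when Sp100 was still at background. Unlike the 7 probe sets, Irf1 was lower with IFN-alpha than with IFN-gamma at 3 h, by 3.56 ± 0.22 (adjusted p = 5.01e-10).

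**Figure D4:**
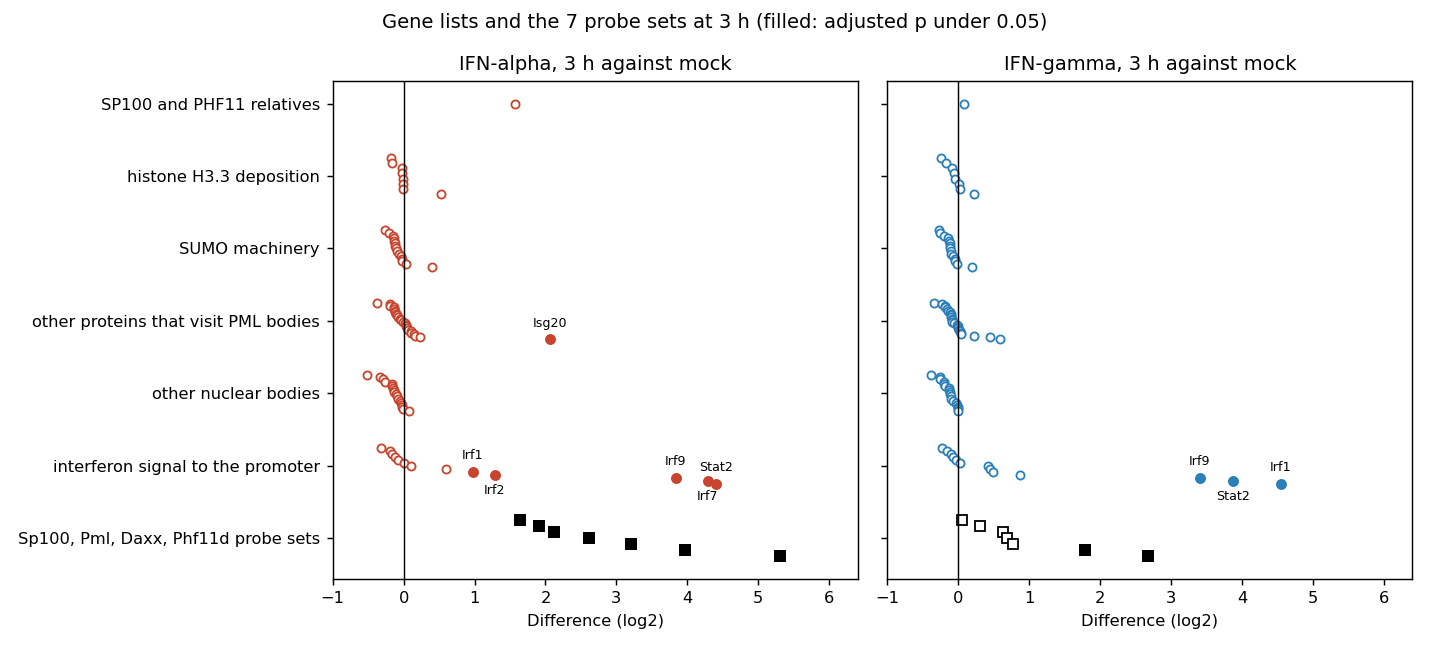
Difference from mock cells at 3 h (log2) for every measured gene of each list and for the 7 probe sets, with IFN-alpha on the left and IFN-gamma on the right; filled symbols have an adjusted p under 0.05 and called list genes are named. Apart from Isg20 and the interferon signal genes, the called symbols are those of the 7 probe sets, 7 with IFN-alpha and 2 with IFN-gamma.

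The genes with the most similar pattern were sought by the smallest Euclidean distance over the 4 differences from mock (both interferons, both times), with 1 probe set per gene, and r over the 24 arrays is a description of points that share arrays and treatments. Nearest to Sp100 1451821_a_at were Ifih1, a sensor of viral RNA (distance 0.780, r = 0.979), Oas2 (0.876, r = 0.969) and Dhx58 (0.905, r = 0.964). Nearest to Phf11d were Trim30a (0.479, r = 0.915), Rnf213 (0.626, r = 0.938) and Herc6 (0.763, r = 0.950), of which Rnf213 and Herc6 encode ubiquitin ligases. Nearest to Daxx were Znfx1 (0.843, r = 0.902), Plscr2 (0.900, r = 0.880) and Oas1b (0.960, r = 0.926). Daxx stood apart from Oas1b and Plscr2 in its value at 1 h with IFN-alpha, 1.03 against 0.24 and 0.32. Nearest to Pml 1448757_at were Isg20 (0.187, r = 0.890), Rnf135 (0.193, r = 0.841) and Endod1 (0.240, r = 0.161). The low r of Endod1 shows that a near match of 4 differences can go with different levels across the arrays.

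**Figure D5:**
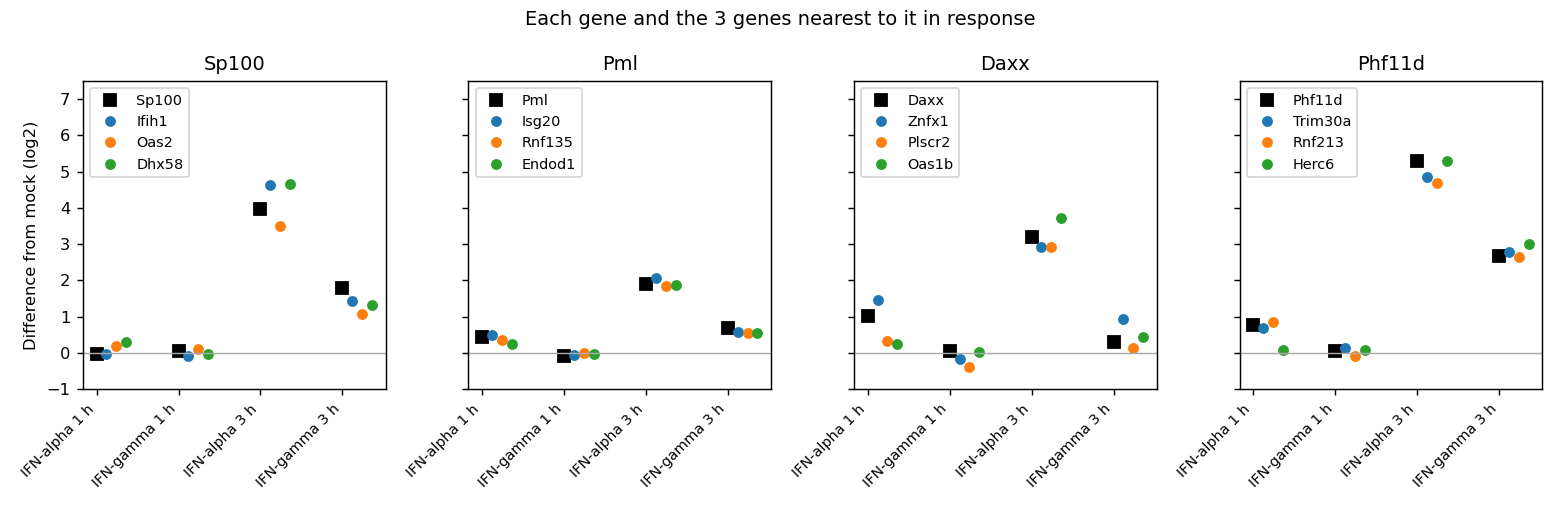
Difference from mock (log2) in the 4 interferon groups for Sp100, Pml, Daxx and Phf11d (black squares, strongest probe set) and the 3 genes nearest to each (coloured points). In each panel the highest values are those of IFN-alpha at 3 h, and Daxx and Znfx1 lie highest at 1 h with IFN-alpha in the Daxx panel.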

How the data were processed

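Total RNA of NIH-3T3 cells was measured on 24 Affymetrix arrays in 7 groups. The authors deposited GCRMA values, per the submitters' processing notes, and these log2 values were used as deposited, without further scaling. The GCRMA version and the number of runs are not given in the sources used here. The platform annotation gave 34945 of 45037 probe sets 1 symbol, 932 several and 9160 none, after 64 controls were left out. Probe sets above log2 4 on at least 3 arrays were tested (19305).

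All groups were fitted together in limma 3.58.1 (R 4.3.3, lmFit and eBayes, 17 residual degrees of freedom). Each of 10 comparisons was tested on both sides, p-values were adjusted by Benjamini and Hochberg's method over the 19305, and those under 0.05 are named called. The fit was run on simulated data with independent noise and 1 spread per probe set in all groups. That run did not cover a spread that differs by time or same-numbered arrays that deviate together, as these arrays do. Where the lower mean was below 4, the fold is a bound, taken after every array under 4 in the lower group was set to 4, and none is given when both means were below. Same-numbered arrays deviated together (r from 0.465 to 0.914 at 1 h and from 0.128 to 0.646 at 3 h). The replicate number was therefore treated as a possible pairing within a time, but arrays of different numbers were not compared for this. Mock arrays with and without 4sU gave r from 0.081 to 0.802, a range that includes that of 3 h. A block by number changed no call of the 7 probe sets there. The main fit ignores the number, and a fit with the number as a block is given where it changes a call. Promoter windows were searched in Python 3.11.15.

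The 4 genes and the gene lists were chosen with earlier results of these data known. Of each list, counts over 1 probe set per gene and up to 4 called genes with the largest change are given, and of each of the 4 genes the 3 nearest genes. Alternatives were the block, a floor at 4, no filter, fewer groups in the fit, a trend in eBayes, quantile normalization, another control, and arrays left out.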

Additional observations from a re-analysis of the deposited data

Results flagged for a closer look

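In 21 groups of 4 arrays, 1 value stood apart from the rest of its group by Dixon's criterion, which chance gives in about 1 of 20 groups. It is the Phf11d signal of 4.27 in replicate 2 of mock cells at 1 h, an array with a high 3′ to 5′ actin difference.

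The response to an interferon differed between 3 h and 1 h by the test of that difference in 7 cases. With IFN-alpha these were Phf11d (4.54), Sp100 1451821_a_at (3.99), Sp100 1434457_at (2.65), Daxx (2.17) and Pml 1456103_at (1.73), all larger at 3 h on the log2 scale. With IFN-gamma they were Phf11d (2.63) and Sp100 1451821_a_at (1.73). Both Sp100 probe sets passed the filter on low values through arrays of 3 h alone. For them a larger value at 3 h was built in, so their cases are a description.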

How the results depend on the processing

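Of 1155 values, each 1 probe set in 1 comparison under 1 alternative, 1102 kept their side of the threshold, 26 lost a call, 27 gained one and 0 called values changed sign. The calls of IFN-alpha at 3 h held in 7 of 7 probe sets under all alternatives run. With the replicate block the number called was 2 for IFN-alpha at 1 h, 4 for IFN-gamma at 3 h and 2 between the interferons at 1 h, and the block ended no call. With values below 4 set to 4, IFN-alpha at 1 h had 0. With the arrays of the same time alone the numbers were 0 for IFN-alpha at 1 h, 4 for IFN-gamma at 3 h and 0 between the mock times, and with the compared groups alone 0, 5 and 0. Quantile normalization gave 2 for IFN-alpha at 1 h and 1 between the interferons at 1 h. With 1 array left out, the number ranged from 1 to 2 for IFN-alpha at 1 h, from 0 to 3 between the interferons at 1 h (3 without IFN-alpha replicate 3) and from 0 to 1 between the mock times. The cause of these changes was not tested. A block could not be fitted between the mock times, where numbers lie within a time. The promoter counts of planned motifs were 0. The shorter window of 100 bases before the start lies within the longer one, so its count of 0 was fixed. With the added spacings the counts were 2 for Sp100 and 3 for Phf11d. Signals near background limit the Sp100 probe sets, Pml 1459137_at and Phf11d.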
